A study of Mus musculus with 6 samples.

Results

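The NRF2 and Keap1 antioxidant genes were read in whole liver as a set of 10 genes: Nfe2l2, which encodes the transcription factor NRF2, its inhibitor Keap1, and 8 genes known as NRF2 targets, Gclc, Gclm, Slc7a11, Gsr, Txnrd1, Srxn1, Nqo1 and Osgin1. They were chosen by name, with earlier results of these data known. They make up 10 of 34781 gene names and 11 of 55681 probes on the array, where Gsr has 2 probes and each other gene 1. The RNA came from C57BL6/J mice, an inbred laboratory strain with no genetic change named in the labels. In the CBZ group 3 mice were given 250 mg/kg of a compound that the labels name only as CBZ, by mouth, and in the control group 3 mice were given dimethyl sulfoxide (DMSO), a solvent, by the same route. All livers were taken 2 h after dosing. The vehicle of the CBZ group and the age and sex of the mice are not stated in the sources used here. Total RNA was labelled with the dye Cy3 and read on 1-colour Agilent arrays, with 1 array per mouse.

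NRF2 is a transcription factor that cells keep at a low level by constant breakdown. Keap1 holds it in the cytoplasm and, as the adaptor of a cullin 3 ubiquitin ligase, marks it for the proteasome. When oxidants or electrophilic drug metabolites modify cysteines of Keap1, NRF2 escapes breakdown, enters the nucleus, pairs with a small Maf protein and binds antioxidant response elements near genes of glutathione synthesis, thioredoxin reduction and quinone detoxification. In liver, this response is best known from drugs whose metabolites deplete glutathione. Because NRF2 is controlled mainly as a protein, the mRNA of Nfe2l2 and Keap1 need not follow its activity, and its targets are the usual readout.

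The arrays measured these genes through 60-base probes, and each value below is the signal of such a probe. The probes of Keap1 and Gclm are shown whole because the array design places each over more than 60 bases of the genome. A probe across an intron would be placed so, but exon positions were not checked. The ends of the Keap1 and Gclm probes lie 441 and 2636 bases apart on the mouse build mm9. They are at chromosome 9, 21035292 to 21035732, and chromosome 3, 121962174 to 121964809. Of the probes of Osgin1, Nfe2l2 and Srxn1, the 3 genes whose groups did not overlap, the first 30 bases are given, all 5′ to 3′ in lower case.
Keap1: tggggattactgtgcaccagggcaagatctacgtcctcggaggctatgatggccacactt
Gclm: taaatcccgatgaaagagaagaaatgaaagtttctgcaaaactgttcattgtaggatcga
Osgin1: gccagctgagtgtccaacttggagggcccc
Nfe2l2: ctcaagttaatttcttaggcaccatttggg
Srxn1: gaagaatgtatgggaactctagtctctgca
None of the 11 probes shared a run of 20 bases with another probe of the array, on either strand. The probes of Osgin1, Nfe2l2 and Srxn1 lie on mm9 at chromosome 8, 121970077 to 121970136, chromosome 2, 75513771 to 75513830, and chromosome 2, 151937009 to 151937068.

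Values are given as the processed signal of a probe divided by the 75th percentile of its array, so that a value of 1 is as bright as that percentile, and levels of different probes are not set against each other. On each array 42.6% to 45.8% of spots stood well above background and none was saturated. Precision is limited by the number of arrays. Limma's p-values set each difference against the spread between arrays, pooled in part over all probes, with 8.62 degrees of freedom. With 1 array per mouse, the spread between mice and that of the measurement are not separated. Of the 10 genes 9 were well above background on all 6 arrays, so their place among the 17047 genes tested did not depend on either group. Slc7a11 was not well above background on any array. The 6 arrays lay on 1 slide, with the 3 DMSO arrays and CBZ replicate 1 in row 1 and CBZ replicates 2 and 3 in row 2. The hepatocyte marker Alb, the albumin gene, was at 1153 to 1335 in DMSO and 1164 to 1293 in CBZ, and 7 of 7 hepatocyte markers measured were well above background on all arrays.

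The comparison of CBZ with DMSO asked whether these genes differed 2 h after dosing. None of the 9 genes tested passed limma's adjusted threshold of 0.05, which 0.0528% of all genes passed (9 genes, 0.0469% higher and 0.00587% lower in CBZ). At an unadjusted p under 0.05 Osgin1 was lower and Srxn1 higher in CBZ, which is 2 of 9 genes against 8.96% of all genes (5% higher and 3.97% lower). In 3 of 9 genes the groups did not overlap, Osgin1 and Nfe2l2 with all CBZ mice below all DMSO mice and Srxn1 with all CBZ mice above, against 12.9% of all genes (6.26% higher and 6.65% lower). With each array scaled to its median, none of the 9 separated the groups, against 5.53% of all genes, and with quantile normalization 4 did, against 17.6%, with Keap1 added on the lower side. The 9 genes had a median log2 fold change of -0.14, CBZ minus DMSO, with 2 higher (Srxn1 and Gsr) and 7 lower, beside a median of -0.0043 over all genes tested, of which 49.1% were higher. The median of the 9 genes was -0.042 without DMSO replicate 1 and -0.28 without DMSO replicate 3. For all 9 genes the 95% interval of the difference lay below a 2-fold rise. Its upper end was highest for Srxn1, at 1.57-fold, and at most 1.28-fold for the others.

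**Figure D1:**
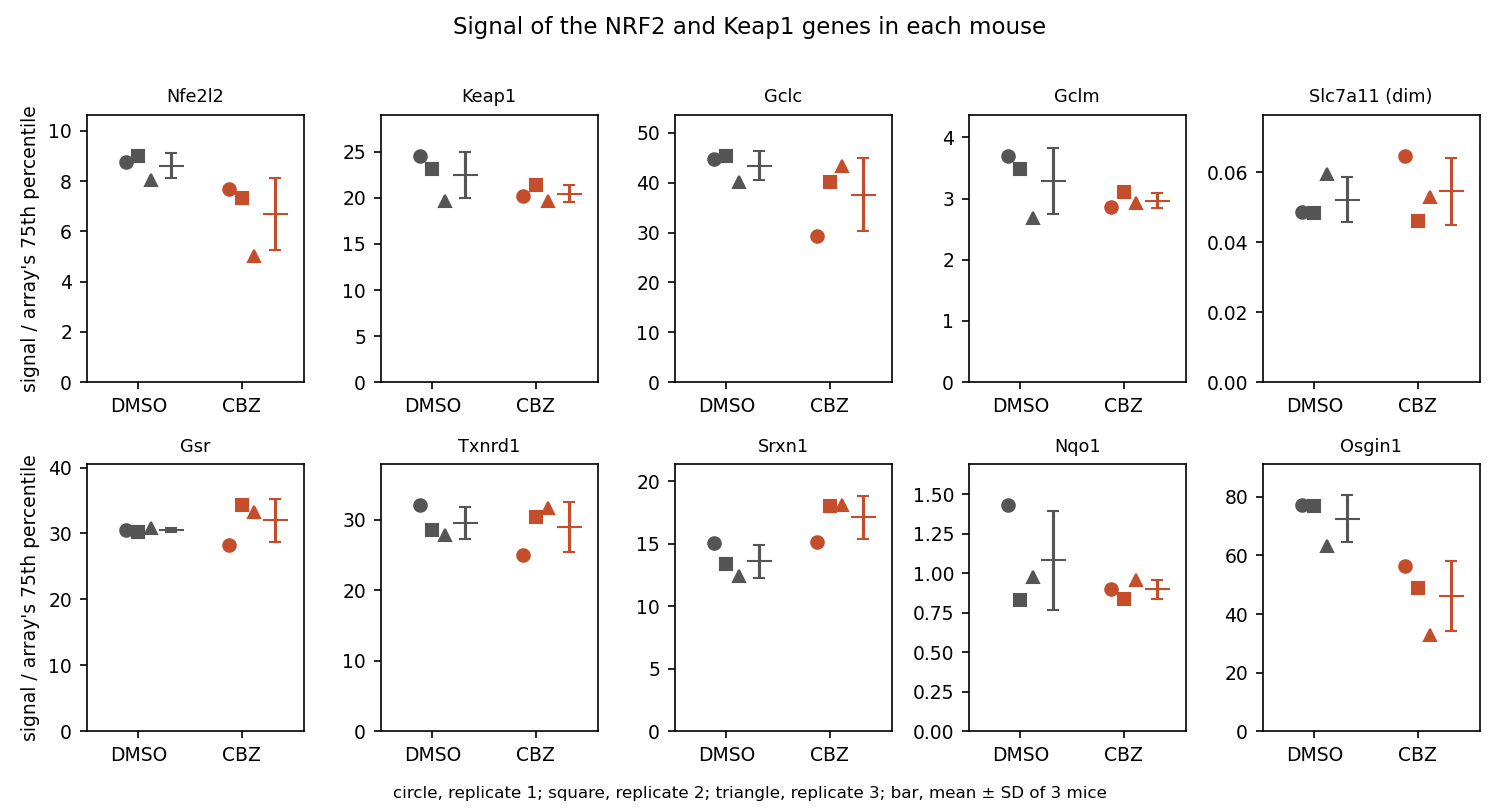
Signal of each gene in each mouse, as a ratio to the 75th percentile of its array (vertical axes, each starting at 0), for 3 DMSO mice in grey and 3 CBZ mice in red, with the brighter probe for Gsr. Symbols mark replicates 1 to 3 and bars the mean ± SD of 3 mice. All CBZ points lie below the DMSO points in Osgin1 and Nfe2l2 and above them in Srxn1, and CBZ points lie on both sides of the narrow DMSO range in Gsr. Slc7a11, marked as dim, was not well above background.

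**Figure D2:**
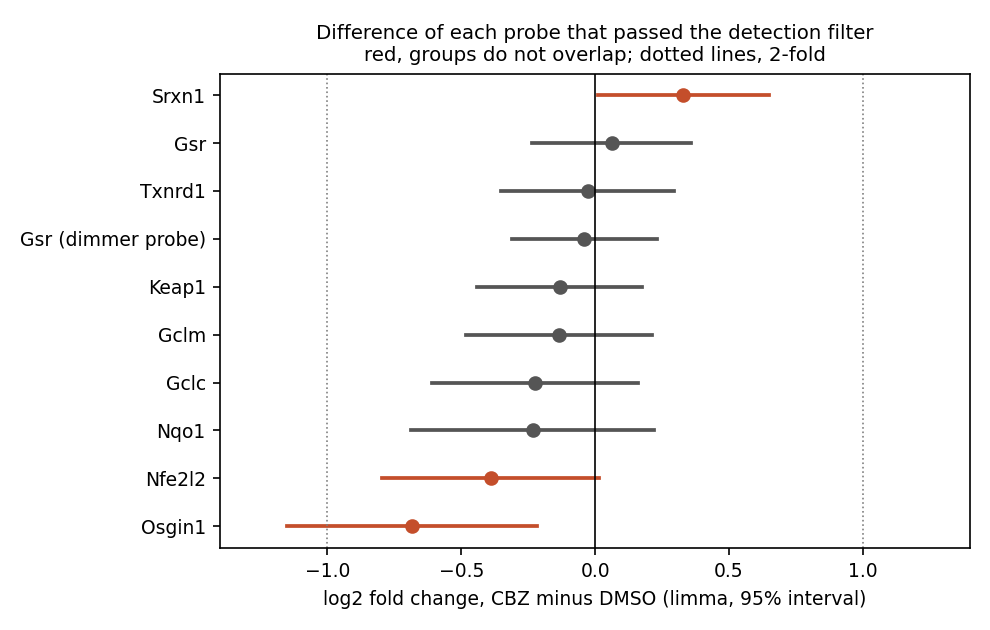
Log2 fold change of CBZ minus DMSO for the 10 probes that passed the detection filter, with the 95% interval from limma. Red marks the genes whose groups did not overlap, and dotted lines mark a 2-fold difference. Only the intervals of Osgin1 and Srxn1 leave out 0, and none reaches a 2-fold rise.

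Nfe2l2, the gene of NRF2 itself, had a signal of 8.78, 9.02 and 8.05 in DMSO and 7.68, 7.34 and 5.04 in CBZ. All CBZ mice lay below all DMSO mice, with CBZ replicate 3 apart from the other CBZ mice. The means were 8.62 ± 0.502 and 6.68 ± 1.44 (SD, n = 3 mice each), a log2 fold change of -0.39 ± 0.18 (SE), with a 95% interval from -0.80 to 0.02. Limma's adjusted p was 0.561, and the log2 fold change was -0.20 without CBZ replicate 3. Keap1, the adaptor that brings NRF2 to its ubiquitin ligase, was at 24.6, 23.2 and 19.7 in DMSO and 20.2, 21.4 and 19.7 in CBZ. The groups overlapped, with CBZ replicate 3 level with DMSO replicate 3, the lowest DMSO mouse, and no CBZ mouse as high as the other DMSO mice. The log2 fold change of Keap1 was -0.13 ± 0.14, with an interval from -0.44 to 0.18 (limma's adjusted p = 0.909). It was -0.065 without DMSO replicate 1 and -0.23 without DMSO replicate 3.

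Gclc encodes the catalytic subunit of glutamate-cysteine ligase, the rate-limiting enzyme of glutathione synthesis. Its signal was 44.8, 45.5 and 40.1 in DMSO and 29.4, 40.3 and 43.3 in CBZ. CBZ replicate 1 was the lowest of all mice, and the other CBZ mice lay within the DMSO range. The log2 fold change was -0.22 ± 0.17, with an interval from -0.61 to 0.16 (limma's adjusted p = 0.834), and -0.05 without CBZ replicate 1. Gclm encodes the modifier subunit of the same enzyme and was at 3.70, 3.48 and 2.68 in DMSO and 2.87, 3.101 and 2.92 in CBZ. The CBZ mice lay inside the DMSO range, and the log2 fold change was -0.14 ± 0.15 (limma's adjusted p = 0.919). With 1 DMSO mouse left out, Gclm was at -0.042 (without replicate 1), -0.088 (replicate 2) or -0.28 (replicate 3). Slc7a11, the cystine importer that feeds this pathway, was at 0.0487, 0.0482 and 0.0595 in DMSO and 0.0647, 0.0460 and 0.0528 in CBZ. These values are not well above background and have no order. An exact two-sided permutation test over the 6 mice gave p = 0.7 for Slc7a11, where the smallest p this design allows is 0.1.

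Gsr encodes glutathione reductase, which turns oxidised glutathione back to its reduced form. It was read by 2 neighbouring probes, whose starts lie 75 bases apart. The brighter probe was at 30.5, 30.2 and 30.9 in DMSO and 28.3, 34.3 and 33.3 in CBZ. The DMSO mice lay close together, and CBZ mice lay on both sides of them. The dimmer probe was at 7.91, 7.82 and 8.34 in DMSO and 7.52, 7.94 and 7.94 in CBZ. The log2 fold changes of Gsr were 0.06 ± 0.13 and -0.04 ± 0.12, with limma's adjusted p at 0.966 and 0.977. Their intervals ran from -0.23 to 0.36 and from -0.31 to 0.23, and the brighter probe was at 0.15, 0.0070 and 0.030 without CBZ replicates 1, 2 and 3 in turn and turned to -0.038 with each array scaled to its median.

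Txnrd1, the cytosolic thioredoxin reductase, was at 32.1, 28.5 and 27.9 in DMSO and 25.0, 30.5 and 31.6 in CBZ. The groups overlapped, and the log2 fold change was -0.03 ± 0.14 (limma's adjusted p = 0.986), turning to 0.076 without CBZ replicate 1. Srxn1 encodes sulfiredoxin, which restores overoxidised peroxiredoxins, and was at 15.04, 13.4 and 12.4 in DMSO and 15.17, 18.1 and 18.1 in CBZ. CBZ replicate 1 was just above DMSO replicate 1, while the other CBZ mice were clearly above all DMSO mice. The means were 13.6 ± 1.32 and 17.1 ± 1.69 (SD, n = 3 mice each), so that Srxn1 was 1.26-fold higher in CBZ, with a log2 fold change of 0.33 ± 0.14 and an interval from 0.01 to 0.65. The unadjusted p was 0.0442 and the adjusted p 0.514 in limma.

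Nqo1 encodes a quinone reductase and is among the most used markers of NRF2 activity. Its signal was 1.43, 0.833 and 0.978 in DMSO and 0.898, 0.834 and 0.957 in CBZ. DMSO replicate 1 stood above all other mice, and the other DMSO mice and the CBZ mice overlapped. The log2 fold change was -0.23 ± 0.20, with an interval from -0.69 to 0.22 (limma's adjusted p = 0.871). Without DMSO replicate 1 it was -0.01, and without DMSO replicate 2 it was -0.40. The same mouse had the highest summed signal of 11 Kupffer cell and macrophage markers, at 323, where DMSO replicates 2 and 3 had 169 and 148 and the CBZ mice 194 to 235, with all 11 well above background on all arrays, and the part of these cells in the Nqo1 signal was not tested. In whole tissue, fewer cells of a type and less RNA per cell cannot be told apart.

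Osgin1, an oxidative stress-induced growth inhibitor, had the largest difference of the 9 genes tested. Its signal was 77.3, 77.0 and 63.3 in DMSO and 56.2, 48.9 and 32.9 in CBZ. All CBZ mice were below all DMSO mice, and CBZ replicate 3 was the lowest. The means were 72.5 ± 7.96 and 46.0 ± 11.9 (SD, n = 3 mice each), which is 1.61-fold lower in CBZ, with a log2 fold change of -0.68 ± 0.21 and an interval from -1.15 to -0.22. The unadjusted p was 0.00934 and the adjusted p 0.329 in limma. The adjusted p ran from 0.0852 with normexp background correction to 0.980 with the slide row as a covariate.

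The slide row was the batch that could be set apart, and row 1 alone compares CBZ replicate 1 with the 3 DMSO mice. There the log2 difference was -0.36 for Osgin1, -0.17 for Nfe2l2, 0.16 for Srxn1 and -0.56 for Gclc. For Osgin1, Nfe2l2 and Srxn1 it was in the same direction and smaller than with all mice, and for Gclc it was larger. It was -0.23 for Nqo1, -0.15 for Keap1, -0.18 for Gclm, -0.24 for Txnrd1 and -0.11 for the brighter probe of Gsr. Row 2 held CBZ mice only and gives no comparison, and these values rest on 1 CBZ mouse.

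Osgin1 and Nfe2l2 placed the mice in nearly the same order. In both, CBZ replicate 3 was lowest, followed by CBZ replicate 2, CBZ replicate 1 and DMSO replicate 3, and only the remaining DMSO mice changed places. Bach1, which encodes a repressor that competes with NRF2 for its binding sites, had the order of Nfe2l2 exactly. Its signal was 4.55, 4.74 and 4.36 in DMSO and 4.32, 3.58 and 2.96 in CBZ, a log2 fold change of -0.35 ± 0.16 (limma's adjusted p = 0.565). For Bach1 it was -0.21 without CBZ replicate 3 and -0.075 in slide row 1 alone. Srxn1 had its highest values in CBZ replicates 2 and 3. The order shared by Osgin1, Nfe2l2 and Bach1 was noticed after the values were seen. Part of it follows from their groups not overlapping, and its share among all genes was not counted. By mouse, DMSO replicate 1 held the highest value of 5 of the 9 genes and CBZ replicates 1 and 3 the lowest of 3 each. Of the 9 genes 8 were above their DMSO mean in DMSO replicate 1, 1 in CBZ replicate 1 and 3 each in CBZ replicates 2 and 3.

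**Figure D3:**
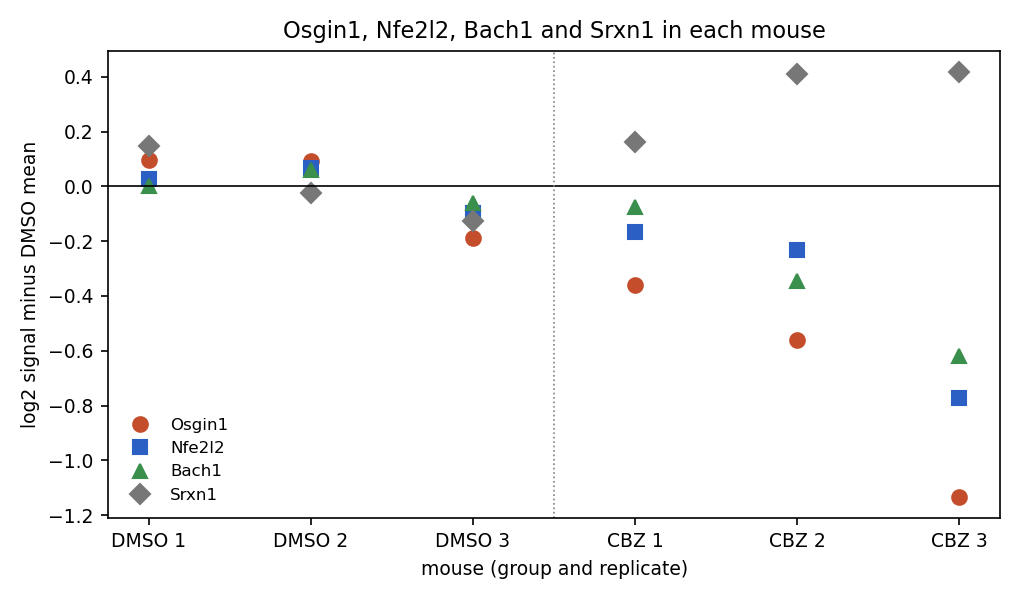
Log2 signal of Osgin1, Nfe2l2, Bach1 and Srxn1 in each mouse, minus the mean of the 3 DMSO mice (vertical axis), by group and replicate (horizontal axis). Osgin1, Nfe2l2 and Bach1 are lowest in CBZ replicate 3, and Srxn1 is highest in CBZ replicates 2 and 3.

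Promoter sequence was read from RefSeq windows on the build GRCm38.p6, from 250 bases before to 50 after the start site, which the table held for 8 of the 10 genes (all but Gclc and Gsr). The core of the antioxidant response element, TGACNNNGC on either strand, lay in the windows of 4 of these 8 genes, Gclm, Nfe2l2, Srxn1 and Txnrd1, and in those of 14.0% of all genes in the table. The AP-1 motif TGACTCA, which can overlap the core, was found in Srxn1 and Osgin1 and in 5.9% of all genes. Stretches before the start site are shown for the genes with a match there, 5′ to 3′ along the gene, with capitals for TGACTCA or its reverse in Srxn1 and Osgin1, and for the core or its reverse in Gclm, Nfe2l2 and Txnrd1.
Srxn1: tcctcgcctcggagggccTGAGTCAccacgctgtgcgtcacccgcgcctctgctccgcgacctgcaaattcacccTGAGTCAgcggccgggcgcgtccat
Osgin1: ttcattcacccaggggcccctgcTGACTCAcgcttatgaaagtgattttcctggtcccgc
Gclm: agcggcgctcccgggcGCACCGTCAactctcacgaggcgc
Nfe2l2: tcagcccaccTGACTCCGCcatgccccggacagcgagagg
Txnrd1: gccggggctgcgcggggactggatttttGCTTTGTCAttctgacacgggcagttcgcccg
The Srxn1 stretch is chr2:152105404-152105503 on the plus strand and holds TGACTCA in its reverse form at 102 and 45 bases before the start, while its match to the core lies 29 bases inside the transcript. The Osgin1 stretch is chr8:119437027-119437086 on the plus strand, with the motif 97 bases before the start. Gclm is shown at chr3:122245407-122245446 on the plus strand, Nfe2l2 at chr2:75704874-75704913 on the minus strand, and Txnrd1 at chr10:82859086-82859145 on the plus strand, the only one of its 3 windows with a match. Nqo1, Keap1 and Slc7a11 held none of these motifs in their windows, and a link between a motif and a difference was not tested. A match is a description of the letters and does not show that a factor binds there. Other letter forms and sequence outside the windows were not searched, so a missing match does not show that a gene lacks an element.

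The wider pathway was read from 5 gene lists, of which 96 genes were tested. None passed limma's adjusted threshold, and at an unadjusted p under 0.05 Chac1 and Txnl1 were higher and Gstp1 lower, which is 3.12% of them against 8.96% of all genes. In 9 of the 96 genes the groups did not overlap, which is 9.38% against 12.9% of all genes: Chac1, Ggct, Txnl1, Sod3 and Ftl1 with all CBZ mice higher, and Gstp1, Bach1, Sesn2 and Prdx5 with all CBZ mice lower. Their median log2 fold change was -0.03.

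Among 32 other NRF2 targets tested, 17 were higher and 15 lower, with a median log2 fold change of 0.01. Gstp1, a glutathione transferase, was at 496, 466 and 420 in DMSO and 218, 379 and 318 in CBZ. All CBZ mice were below all DMSO mice, and the log2 fold change was -0.63 ± 0.20 (limma's adjusted p = 0.364), with -0.69 ± 0.20 for a second probe. For Gstp1 it was -0.40 without CBZ replicate 1 and -1.08 in slide row 1 alone, where CBZ replicate 1 is the CBZ mouse. Gstp1 has a close paralog whose RNA its probes may share. Hmox1, the haem oxygenase gene and a classical NRF2 target, was at 14.3, 16.0 and 9.25 in DMSO and 16.6, 16.4 and 8.996 in CBZ. Each group held 1 low mouse, and the log2 fold change was 0.07 ± 0.28, with -0.08 ± 0.20 for its second probe. Pgd, an enzyme of the pentose phosphate pathway that supplies NADPH, was at 0.32 ± 0.15, Gsta2, a glutathione transferase, at -0.32 ± 0.21, and Gstm1, another, at 0.03 ± 0.14 on the log2 scale. With each array scaled to its median, Hmox1 and Gstm1 turned to -0.029 and -0.069. Ftl1, the ferritin light chain, was at 0.22 ± 0.15 for its brighter probe, which the array design places on another chromosome than its second probe, at -0.07 ± 0.16. The brighter Ftl1 probe shared a run of 20 bases with 1 probe of another gene name, and its difference was 0.093 without CBZ replicate 2 and 0.021 in slide row 1 alone. Gsta1 had no probe under that name, and Gpx2 did not pass the filter.

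Among 18 genes that control NRF2, 6 were higher and 12 lower, with a median log2 fold change of -0.10 and Bach1 as the 1 gene whose groups did not overlap. Cul3, the cullin that works with Keap1, was at 2.21, 2.48 and 1.98 in DMSO and 1.90, 2.03 and 1.73 in CBZ. The groups overlapped, and the log2 fold change was -0.23 ± 0.14 (limma's adjusted p = 0.723). Mafg, a small Maf partner of NRF2, was at -0.23 ± 0.15, and its other 3 probes at -0.35 ± 0.16, -0.20 ± 0.14 and -0.17 ± 0.14. Crebbp, a coactivator that acetylates NRF2, was at 0.37 ± 0.21 and 0.26 ± 0.21 on its 2 probes.

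In the glutathione list 7 of 26 genes were higher and 19 lower, with a median log2 fold change of -0.06. Among them Ggt7, counted as higher, passed the detection filter through the CBZ arrays only. Chac1, an enzyme that breaks glutathione down, was at 4.99, 4.08 and 4.03 in DMSO and 5.29, 7.13 and 8.63 in CBZ. All CBZ mice were above all DMSO mice, CBZ replicate 1 narrowly, and Chac1 was 1.58-fold higher, with a log2 fold change of 0.66 ± 0.19 (limma's adjusted p = 0.314). In row 1 alone it was 0.28. Ggct, a gamma-glutamylcyclotransferase, was at 0.25 ± 0.13, and Ggt6, of the gamma-glutamyl transferase family, at 0.26 ± 0.15. The brightest probe of Glrx2, at 0.26 ± 0.16, shared a run of 20 bases with 13 other probes of the array, and the second probe, which shared none, was at -0.00094 ± 0.14.

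In the thioredoxin list 8 of 19 genes were higher and 11 lower, with a median log2 fold change of -0.02. Txnl1, a thioredoxin-like protein of the proteasome, was at 0.9002, 0.928 and 0.984 in DMSO and 1.07, 1.28 and 1.25 in CBZ. The groups did not overlap, and the log2 fold change was 0.35 ± 0.13 (limma's adjusted p = 0.430), or 0.19 in slide row 1 alone. Sesn1, a stress-induced sestrin, was at 0.27 ± 0.15 and its relative Sesn2 at -0.21 ± 0.14, while the peroxiredoxin gene Prdx5 was at -0.19 ± 0.13. Of the 4 genes that remove superoxide and peroxide, Sod3, the extracellular superoxide dismutase, was at 0.25 ± 0.13, Sod2, the mitochondrial form, at -0.14 ± 0.13, and Sod1, the cytosolic form, at -0.0028 ± 0.12, or 0.031 with quantile normalization. Cat, the catalase gene, was at 26.7, 85.5 and 35.1 in DMSO and 28.3, 27.8 and 30.4 in CBZ. DMSO replicate 2 alone was high, and the log2 fold change of -0.58 ± 0.37 was -0.088 without it. A second probe of Cat was at -0.28 ± 0.13. When 1 mouse was left out, the log2 difference ran from 0.20 to 0.44 for Pgd, from 0.18 to 0.59 for Crebbp and from 0.18 to 0.41 for Sesn1. It ran from -0.51 to -0.18 for Gsta2, from -0.31 to -0.15 for Cul3, from -0.31 to -0.11 for Mafg and from -0.29 to -0.11 for Sesn2.

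**Figure D4:**
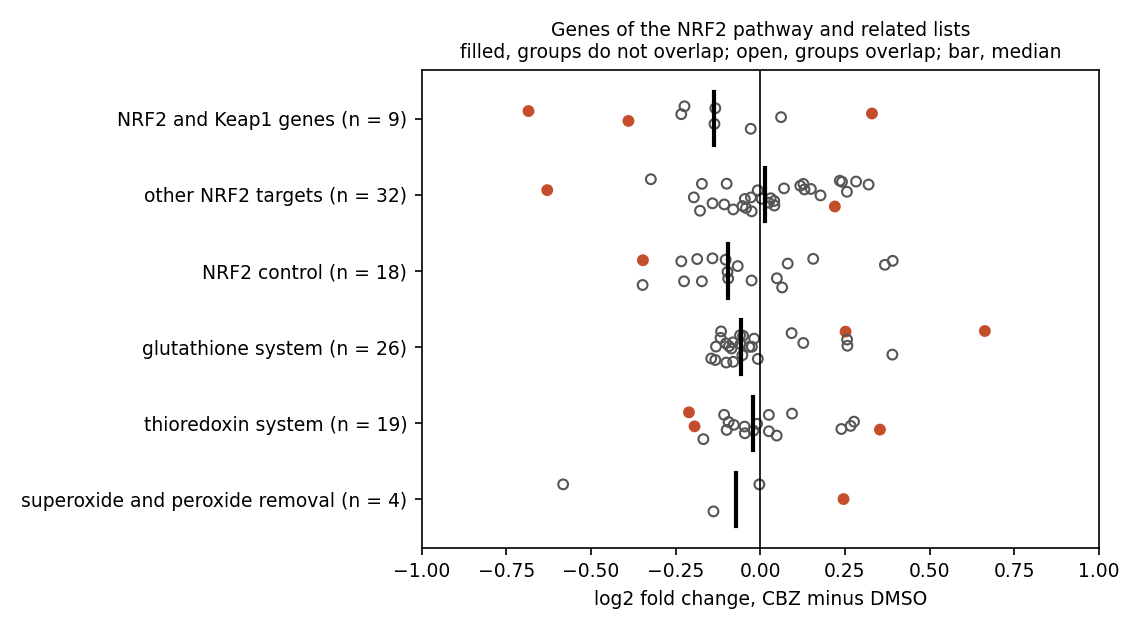
Log2 fold change of CBZ minus DMSO (horizontal axis) for each tested gene of the NRF2 and Keap1 set and of the 5 pathway lists, 1 circle per gene, with the vertical position within a list spread for legibility. Filled red circles are genes whose groups did not overlap, open circles are genes whose groups overlapped, and bars are medians. The medians lie between -0.14 and 0.01, and no circle passed limma's adjusted threshold.

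The genes whose log2 signal was most like that of a regulator or of Nqo1 over the 6 mice were taken by Pearson's r from 11000 other named genes detected on all arrays, as a description, with no test. They were Uchl5 and Gmfb for Keap1 (r = 0.998 and 0.996), Cd320 and Rbm15 for Nfe2l2 (0.997 and 0.994), and Adipor2 and Atp6v1h for Nqo1 (0.980 and 0.974). With so few arrays, high values are common: 614 genes had r over 0.9 with Keap1, 288 with Nfe2l2 and 26 with Nqo1.

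Markers of other liver cell types overlapped between the groups, by gene and in sum. The brightest probes weigh most in such a sum. By gene, 8 of 10 stellate cell and fibroblast markers tested and 9 of 11 Kupffer cell and macrophage markers were higher in CBZ. The counts were 5 of 8 for sinusoidal endothelium, 2 of 3 for cholangiocytes and 4 of 5 for lymphocytes. They were 3 of 5 for neutrophils and 3 of 7 for hepatocytes, against 49.1% of all genes. Hgf (stellate), Cd79a (lymphocyte), Camp and S100a8 (neutrophil), all counted as higher, were well above background on 3 CBZ but only 2 DMSO arrays. Krt7 (cholangiocyte), counted as lower, was well above background on 3 DMSO arrays and on 0 CBZ arrays. These markers were tested only through the group where they were higher, so the filter favoured their direction and these counts cannot show a difference. The summed signal of 8 sinusoidal endothelial markers was 71.2 to 110 in DMSO and 79.0 to 105 in CBZ, and that of 11 stellate cell and fibroblast markers 217 to 251 and 205 to 326. The 6 cholangiocyte markers summed to 2.56 to 3.85 and 3.49 to 4.54, with Epcam and Cldn4 not well above background on any array. The 8 lymphocyte markers summed to 6.11 to 6.82 and 6.41 to 6.90, with Cd8a, Ms4a1 and Klrb1c not well above background on any array. The 8 neutrophil markers summed to 3.73 to 7.22 and 5.01 to 5.75, with Ngp and Mpo likewise not well above background. These dim markers are part of the sums. The Kupffer cell marker Clec4f had a log2 fold change of 0.20 ± 0.20, which was 0.41 without DMSO replicate 1 and 0.034 without DMSO replicate 3. The part of these cells in the differences above was not tested.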

How the data were processed

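Whole-liver RNA of 3 CBZ and 3 DMSO mice was read on 6 arrays of 1 slide. Groups and replicate numbers are those of the sample labels. Scans were extracted by the authors in Agilent Feature Extraction 10.7.3.1 under the protocol GE1_107_Sep09, per the file headers. The deposited scanner files hold intensity on a linear scale, background-subtracted and detrended within each array, as the column headers state. In a deposited value table, each value is a ratio of intensity to its array's median, a scale found here by comparison with the scanner files.

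Control spots and outlier-marked spots were left out. The log2 intensity was scaled by each array's 75th percentile over 59305 spots, and repeat spots were averaged per probe. Probes were kept where well above background on all 3 arrays of a group, which left 22352 probes of 17047 genes, each gene read by its brightest probe. Probes were named through a RefSeq table (GRCm38.p6), 27428 through an accession, 3483 through a symbol and 507 through a synonym, while 24263 kept the name in the files. CBZ was compared with DMSO in limma 3.58.1 (R 4.3.3, two-sided) without a covariate. Its p-values were adjusted by Benjamini-Hochberg over the probes kept, with 0.05 as the threshold. The fit was tested on simulated data. The 10 genes and the lists were chosen with earlier results of these data known. From each list, genes past the threshold and the 4 with the smallest p were named, with Hmox1, Gsta1, Gstm1, Gpx2, Cul3, Bach1, Mafg, Alb and Clec4f in any case. Alternatives were another background correction, scaling, filter, variance model, probe rule or threshold, the authors' table, slide row, the replicate number as a block, and leaving out each mouse. The labels do not say whether replicate numbers pair mice, and the main fit did not pair them.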

Additional observations from a re-analysis of the deposited data

How the results depend on the processing

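Under every alternative setting run, none of the 9 NRF2 and Keap1 genes tested and none of the 96 pathway genes passed limma's adjusted threshold. At an unadjusted p under 0.05 between 1 and 3 of the 9 and between 3 and 7 of the 96 did. Osgin1, Nfe2l2, Srxn1, Nqo1, Gclc, Gclm and Keap1 kept their direction in every alternative, although filters, the variance model and the block cannot turn it. The log2 fold change ran from -0.85 to -0.36 for Osgin1, from -0.50 to -0.17 for Nfe2l2 and from 0.16 to 0.41 for Srxn1. That of Gsr reversed to -0.038 with median scaling and in the authors' table and to -0.11 with the slide row. That of Txnrd1 ran from -0.094 to 0.076 when a mouse was left out, with values above 0 without CBZ replicate 1 or DMSO replicate 1. Median scaling moved the median of all genes to -0.10, and that of the 9 genes to -0.24. With median scaling, as with the authors' values, 0 of the 9 separated the groups, and the moderated test then had 89410 degrees of freedom, in effect a single variance for every probe. Among the other named genes Alb, Glrx2, Gstm1, Hmox1 and Sod1 reversed in some alternative, and the rest kept their direction. Reversed values were -0.029 for Hmox1 and -0.069 for Gstm1 with median scaling and in the authors' table, -0.18 for Gstm1 and -0.029 for Glrx2 with the slide row, -0.0027 for Hmox1 with the mean of its probes, 0.012 for Alb and 0.023 for Sod1 with scaling over detected spots, and 0.031 for Sod1 with quantile normalization. When a mouse was left out, values ran from -0.17 to 0.36 for Hmox1, from -0.025 to 0.13 for Gstm1, from -0.076 to 0.033 for Alb and from -0.068 to 0.041 for Sod1. Median scaling and the authors' table lowered the log2 fold change of every named gene by the same amount. The cause of the other reversals was not tested.

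Of all genes 8 were called higher and 1 lower. The counts were 59 and 44 with normexp, 3 and 1 with quantile normalization, 44 and 45 with median scaling and in the authors' table, 3 and 0 with scaling over detected spots, 23 and 7 with the filter on all 6 arrays, 63 and 71 with an intensity trend and robust eBayes, 2 and 2 with the slide row, and 28 and 14 at an adjusted p under 0.10. Without a filter limma called 0 and 0, where 1058 and 542 had an unadjusted p under 0.05. Without 1 mouse the counts ran from 0 to 16 and from 0 to 5, the highest without CBZ replicate 1. Limma called none without DMSO replicate 3 (1034 and 998 at an unadjusted p under 0.05) or CBZ replicate 2 (979 and 733), and none lower without DMSO replicate 1 (614), without CBZ replicate 3 (468) or with scaling over detected spots (645). With the replicate number as a block, 6 were higher and 1 lower and no gene of the set passed. Deviations of same-numbered mice correlated at -0.24, 0.022 and 0.20. Within a group of 3 mice such deviations balance out, so these values cannot decide whether the numbers pair mice.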
